A study of Mus musculus with 15 samples.

Results

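The cytosolic chaperonin CCT, also called TRiC, is a folding machine built from 8 related subunits, and the 8 genes that encode them in the mouse, Tcp1, Cct2, Cct3, Cct4, Cct5, Cct6a, Cct7 and Cct8, are described here. They were chosen by symbol from the deposited count tables: all 8 were found among 17493 genes, and all 8 were among the 10831 genes that passed the filter on low counts. The related genes Cct6b and Cct8l1 were also in the tables, with at most 10 reads and 1 read in any library, and did not pass that filter.

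The libraries were made from CD8+ OT-I T lymphocytes of the spleen and lymph nodes of female mice of strain C57BL/6-Tg(TcraTcrb)1100Mjb/Crl, which carry a transgenic T cell receptor, so that nearly all of their CD8+ T cells see the same peptide. There were 5 groups of 3 libraries, numbered 1 to 3 in the labels. One group had no treatment and was taken at 0 h. The others were stimulated with immunofilaments (IF) at 5 ng/ml or with dendritic cells (DC), and each stimulus was sampled after 8 h and after 22 h. Immunofilaments are synthetic polymers, decorated here with SIITFEKL-loaded MHC and with interleukin-2. The DC were of the Flt-3Ligand type and carried SIITFEKL as an added peptide, with 20000 DC to each well of 50000 T cells. SIITFEKL is a variant of the ovalbumin peptide that OT-I cells recognise. The labels give no ages and no number of mice, give no interleukin-2 for the DC wells, and list no unstimulated cells cultured for 8 h or 22 h, so the stimulus and the time in culture cannot be told apart in a comparison with 0 h. All cells were sorted as viable, CD8+ and CD103- before lysis. The titles mark the 3 libraries of every group as Don1, Don2 and Don3. This is read here as 3 donor mice whose cells went into all 5 groups, though the labels do not spell the word out, and libraries are called replicates 1 to 3 by these numbers.

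CCT is made of a pair of stacked rings, each with 1 copy of every subunit, and it encloses a newly made protein and uses ATP to let it fold. Actin and tubulin cannot reach their native state without it, and many proteins built from WD40 repeats, among them cell cycle activators and G protein beta subunits, are also its substrates. The subunits are not alike: Tcp1, Cct2, Cct4 and Cct5 lie on the side of the ring that binds and hydrolyses ATP readily, while Cct3, Cct6a, Cct7 and Cct8 lie on the side that does so weakly. Prefoldin hands it unfolded actin and tubulin, and phosducin-like proteins act as its cofactors. A T cell that leaves its resting state grows and divides, which calls for much newly made protein.

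The 8 genes lie on 8 different chromosomes. On mm10 (GRCm38, GENCODE vM21) the first 4 are Tcp1 at chr17:12915701-12925067 on the plus strand, Cct2 at chr10:117051001-117063814 on the minus strand, Cct3 at chr3:88297116-88321767 on the plus strand and Cct4 at chr11:22990519-23003780 on the plus strand. The other 4 are Cct5 at chr15:31590800-31601804 on the minus strand, Cct6a at chr5:129786998-129846371 on the plus strand, Cct7 at chr6:85451514-85468475 on the plus strand and Cct8 at chr16:87483326-87495873 on the minus strand. This annotation types the Cct6a record, which spans 59374 bases, as a processed transcript and the other members as protein coding. Some share exonic sequence with a gene on the opposite strand: Tcp1 with Mrpl18 over 141 bases and with Acat3 over 571, Cct6a with Psph over 452, Cct7 with Pradc1 over 214 and Cct8 with Usp16 over 192. On the same strand, Cct6a shares 102 exonic bases with the small nucleolar RNA Snora15 and Tcp1 shares 138 with the small nucleolar RNA Gm26130. Whether the counting used strand is not given in the sources used here, so reads from all these stretches cannot be told apart between the partners. Cct2, Cct3, Cct4 and Cct5 had no such partner.

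Promoter sequences are shown because the levels of the 8 transcripts varied together from library to library. The RefSeq promoter table (GRCm38.p6) held 7 of the 8 members, all but Cct4, and the windows below run from 150 bases before a start site through the first 50 bases of the transcript, 5′ to 3′ on the gene's strand. The windows are chr17:12916179-12916378, plus strand for Tcp1, chr10:117063803-117064002, minus strand for the first of 2 listed starts of Cct2, chr3:88296985-88297184, plus strand for Cct3, chr5:129787206-129787405, plus strand for Cct6a and chr16:87495820-87496019, minus strand for Cct8. Capitals mark CCAAT and CCGGAAG on either strand, so that ATTGG and CTTCCGG are the same motifs read from the other strand. Not printed are the window of Cct7, which holds ATTGG, and the 2 windows of Cct5 and the second of Cct2, which hold neither motif.
Tcp1: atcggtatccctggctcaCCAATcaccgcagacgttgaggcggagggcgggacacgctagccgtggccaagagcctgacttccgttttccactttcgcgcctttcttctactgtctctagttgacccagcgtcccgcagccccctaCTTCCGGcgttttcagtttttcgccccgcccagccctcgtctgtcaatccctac
Cct2: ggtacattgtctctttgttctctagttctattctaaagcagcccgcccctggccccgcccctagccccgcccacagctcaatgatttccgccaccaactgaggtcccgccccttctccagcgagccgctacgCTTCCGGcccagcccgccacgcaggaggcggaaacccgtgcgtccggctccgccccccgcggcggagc
Cct3: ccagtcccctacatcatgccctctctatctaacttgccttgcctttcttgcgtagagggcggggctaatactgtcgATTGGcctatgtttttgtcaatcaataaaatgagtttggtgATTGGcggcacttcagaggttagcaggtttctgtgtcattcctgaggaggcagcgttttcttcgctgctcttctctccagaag
Cct6a: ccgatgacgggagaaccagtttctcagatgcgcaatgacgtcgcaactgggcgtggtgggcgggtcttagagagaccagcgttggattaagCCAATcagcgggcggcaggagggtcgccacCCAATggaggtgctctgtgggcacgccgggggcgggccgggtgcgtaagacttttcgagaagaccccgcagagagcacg
Cct8: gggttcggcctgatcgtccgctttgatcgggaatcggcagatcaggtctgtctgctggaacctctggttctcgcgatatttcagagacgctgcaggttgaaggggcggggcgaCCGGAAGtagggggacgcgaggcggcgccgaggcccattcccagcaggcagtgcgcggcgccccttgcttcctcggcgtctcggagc

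Motifs were searched on both strands over 300 bases at each listed start, and matches of different motifs were counted separately whether or not they overlapped. GGGCGG, the core of a GC box, was found in 7 of the 7 members, against 35.7% of all 32851 promoters in the table. CCAAT was found in 4 of 7 (Tcp1, Cct3, Cct6a and Cct7), against 37.4% of all promoters, and the ETS core CCGGAAG in 3 of 7 (Tcp1, Cct2 and Cct8), against 8.86%. The heat shock element cores GAANNTTC and TTCNNGAA, which are phases of the same repeat and can overlap, were found in 1 member (Cct2, at its second start) and in 2 members (Cct5 and Cct6a), against 7.86% and 8.52%. The E-box CACGTG and the TATA box TATAAA were found in 0 of 7, against 7.15% and 13.6%. These matches describe the letters in the windows and show neither binding nor a cause.

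Total counts ran from 2892874 to 19806730 reads per library, and members had from 221 to 9078 reads. Were those reads independent molecules, counting alone would give an error of 6.73% at the fewest and 1.05% at the most. All levels are normalised read counts (CPM, the reads of a gene relative to all reads of its library), scaled with TMM factors of 0.857 to 0.872 in the unstimulated and 0.951 to 1.11 in the stimulated libraries. Libraries 2 and 3 of IF 22 h stood apart with 0.179% and 0.146% of reads from mitochondrial ribosomal RNA, against 1.82% to 4.49% elsewhere. T cell markers were high in every library and lower after stimulation. In the 4 comparisons with 0 h that follow, 6.07% to 7.76% of all genes were called. The T cell marker sum over 9 genes, Cd3e and Cd8a among them, was 10729 to 11637 CPM at 0 h and 4867 to 7556 CPM after stimulation. Of the 9 tested, 7 and 6 were lower with IF at 8 h and 22 h, and 9 and 7 with DC, with 0 higher. Dendritic cell markers summed to 1079 to 1919 CPM at 0 h. With IF the sum was 503 to 773 CPM at 8 h and 601 to 858 CPM at 22 h, and with DC 1307 to 1629 CPM and 750 to 1027 CPM. Of 17 tested, 1 and 2 were higher and 6 and 6 lower with IF at 8 h and 22 h, and 3 and 3 were higher and 0 and 4 lower with DC. The sum was high at 0 h, where no DC had been added, so it is not a measure of the added dendritic cells. Of single genes, Zbtb46 was at 0 in the unstimulated and IF 8 h libraries. Fscn1 averaged 2.31 CPM at 0 h, 142 CPM at DC 8 h and 85.0 CPM at DC 22 h. Members of the list went both ways, so these 2 genes do not stand for it. B cell markers summed to 6.52 to 49.7 CPM, and 1 of 6 was lower at 8 h with either stimulus and 0 at 22 h, with 0 higher. Immediate early genes, which cell handling can induce, summed to 3154 to 4424 CPM at 0 h and 822 to 1259 CPM after stimulation (of 12, 9 and 8 lower with IF at 8 h and 22 h and 8 and 10 with DC, 0 higher), and heat-inducible genes to 342 to 702 and 145 to 280 CPM (of 7, 4 lower at IF 8 h and 3 in each of the others, 0 higher). The part of these changes in the members' values was not tested. In bulk libraries fewer cells of a type and less RNA per cell cannot be told apart.

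None of the 8 subunits passed the threshold of adjusted p under 0.05 in any of the 9 comparisons (edgeR quasi-likelihood test) or in the test of any difference among the 5 groups. At 8 h the mean of every subunit was above its mean at 0 h, by 1.02-fold to 1.67-fold. The coefficient of variation over the 3 libraries of a group was 3.30% to 11.6% at 0 h. With IF it was 2.36% to 20.5% at 8 h and 3.94% to 21.9% at 22 h, and with DC 21.4% to 40.9% and 25.1% to 55.4%. Over all 5 groups, 1286 of 10831 genes differed (11.9%), and the member with the smallest adjusted p was Tcp1 (0.150, by edgeR's quasi-likelihood test).

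**Figure D1:**
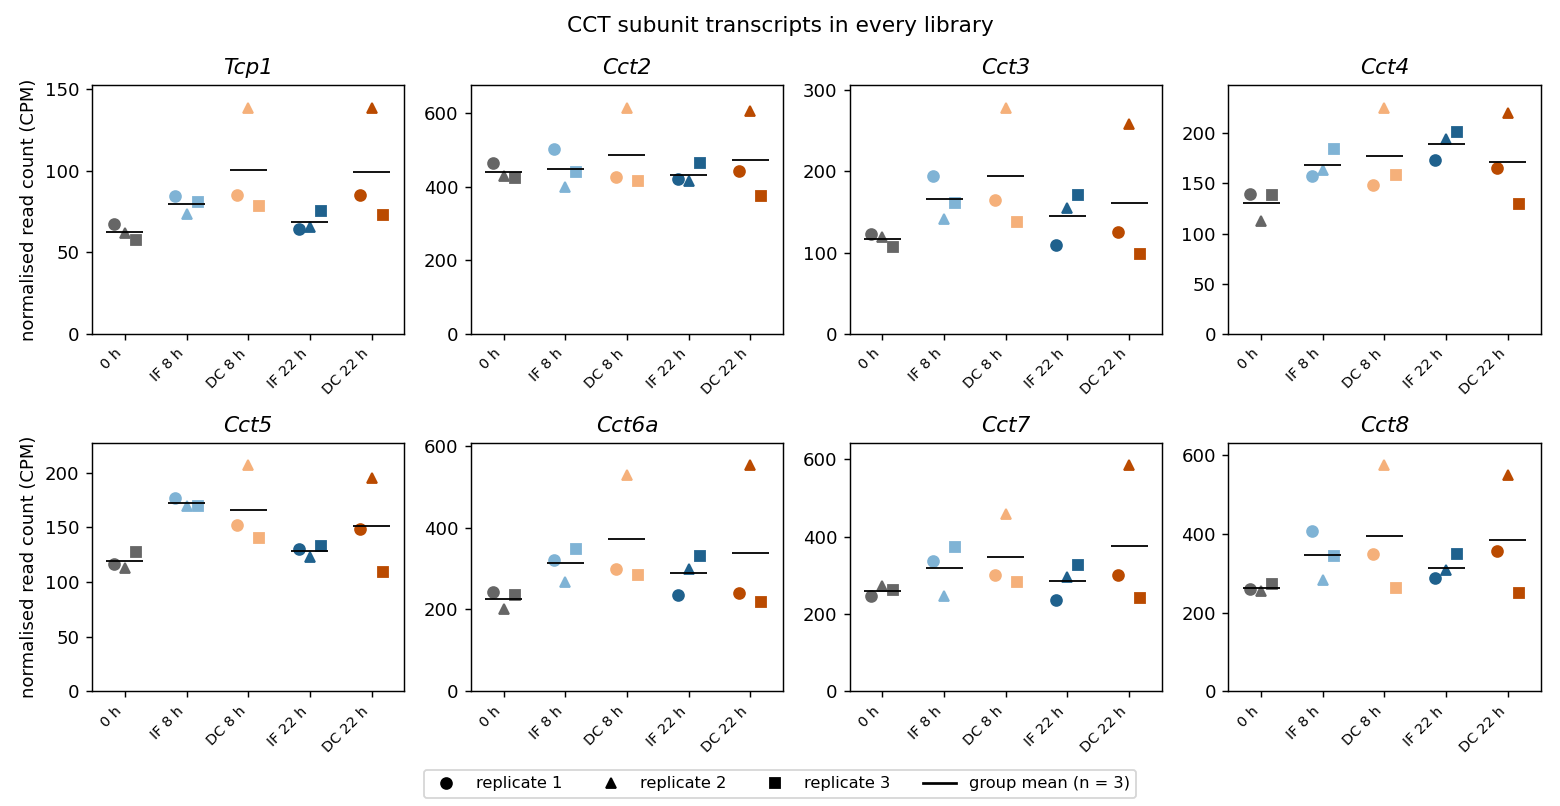
Normalised read counts (CPM, vertical axes from 0) of the 8 CCT subunit transcripts in each of the 15 libraries, by group; symbols are replicates 1 to 3 and bars are group means (n = 3). DC replicate 2 is the highest library of its group for every subunit at both times, and the highest of all 15 libraries is always one of these.

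Tcp1, the alpha subunit and the first to be found, measured 67.2, 61.9 and 57.7 CPM in unstimulated replicates 1, 2 and 3. Tcp1 in IF replicates 1, 2 and 3 measured 84.1, 73.2 and 80.6 CPM at 8 h and 64.1, 65.7 and 75.5 CPM at 22 h. Tcp1 in DC replicates 1, 2 and 3 measured 85.1, 138 and 78.5 CPM at 8 h and 85.3, 139 and 73.0 CPM at 22 h. At 8 h every stimulated library lay above every unstimulated one, and so did the DC libraries at 22 h, while IF 22 h overlapped 0 h. Tcp1 with IF had a log2 fold change of 0.35 ± 0.24 (SE, adjusted p = 0.413) at 8 h and 0.14 ± 0.24 (SE, adjusted p = 0.809) at 22 h. That of Tcp1 with DC was 0.69 ± 0.24 (SE, adjusted p = 0.0980) at 8 h and 0.67 ± 0.24 (SE, adjusted p = 0.104) at 22 h.

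Cct2, the beta subunit, measured 463, 430.1 and 423 CPM in unstimulated replicates 1, 2 and 3. Cct2 in IF replicates 1, 2 and 3 measured 502, 399.5 and 440.4 CPM at 8 h and 421, 415 and 463 CPM at 22 h. Cct2 in DC replicates 1, 2 and 3 measured 427, 615 and 415 CPM at 8 h and 441, 605 and 374 CPM at 22 h. Its levels overlapped those at 0 h in all 4 stimulated groups. Cct2 with IF had a log2 fold change of 0.029 ± 0.19 (SE, adjusted p = 0.949) at 8 h and -0.019 ± 0.19 (SE, adjusted p = 0.974) at 22 h. That of Cct2 with DC was 0.15 ± 0.19 (SE, adjusted p = 0.717) at 8 h and 0.11 ± 0.19 (SE, adjusted p = 0.782) at 22 h. The approximate 95% intervals, which reach from -0.41 to 0.54 over these comparisons, do not show that Cct2 stayed constant.

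Cct4, the delta subunit, measured 139, 113 and 139 CPM in unstimulated replicates 1, 2 and 3. Cct4 in IF replicates 1, 2 and 3 measured 158, 163 and 184 CPM at 8 h and 173, 194 and 201 CPM at 22 h. Cct4 in DC replicates 1, 2 and 3 measured 148, 226 and 159 CPM at 8 h and 166, 220.0 and 129 CPM at 22 h. Its highest group mean was at IF 22 h, 189 ± 14.6 CPM (SD, n = 3) against 130.3 ± 15.1 CPM at 0 h, with no overlap between the groups. Cct4 with IF had a log2 fold change of 0.37 ± 0.20 (SE, adjusted p = 0.293) at 8 h and 0.54 ± 0.20 (SE, adjusted p = 0.130) at 22 h. That of Cct4 with DC was 0.45 ± 0.20 (SE, adjusted p = 0.213) at 8 h and 0.40 ± 0.20 (SE, adjusted p = 0.257) at 22 h.

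Cct5, the epsilon subunit, measured 116, 113 and 128 CPM in unstimulated replicates 1, 2 and 3. Cct5 in IF replicates 1, 2 and 3 measured 177, 169.6 and 170.0 CPM at 8 h and 131, 123 and 133 CPM at 22 h. Cct5 in DC replicates 1, 2 and 3 measured 152, 207 and 140.0 CPM at 8 h and 148, 196 and 109 CPM at 22 h. The IF 8 h libraries were high and tightly grouped, all above 0 h and all above IF 22 h. Cct5 with IF had a log2 fold change of 0.53 ± 0.20 (SE, adjusted p = 0.110) at 8 h and 0.12 ± 0.19 (SE, adjusted p = 0.798) at 22 h. That of Cct5 with DC was 0.49 ± 0.19 (SE, adjusted p = 0.157) at 8 h and 0.35 ± 0.19 (SE, adjusted p = 0.310) at 22 h. Its adjusted p at IF 8 h was the smallest of any member in that comparison.

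The 4 subunits of the side that uses ATP weakly follow. Cct3, the gamma subunit, measured 107 to 123 CPM at 0 h. Cct3 with IF measured 142 to 195 CPM at 8 h and 109.8 to 171 CPM at 22 h. Cct3 with DC measured 138 to 278 CPM at 8 h and 98.3 to 258 CPM at 22 h. Both 8 h groups lay above 0 h without overlap, and both 22 h groups overlapped it. Cct3 with IF had a log2 fold change of 0.52 ± 0.31 (SE, adjusted p = 0.351) at 8 h and 0.32 ± 0.31 (SE, adjusted p = 0.615) at 22 h. That of Cct3 with DC was 0.74 ± 0.31 (SE, adjusted p = 0.183) at 8 h and 0.47 ± 0.31 (SE, adjusted p = 0.400) at 22 h.

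Cct6a, the zeta subunit, measured 244, 201 and 236 CPM in unstimulated replicates 1, 2 and 3. Cct6a in IF replicates 1, 2 and 3 measured 322, 268 and 348 CPM at 8 h and 234, 299 and 331 CPM at 22 h. Cct6a in DC replicates 1, 2 and 3 measured 299.7, 529 and 284 CPM at 8 h and 239.8, 552 and 219 CPM at 22 h. Both 8 h groups lay above 0 h, and DC 22 h replicates 1 and 3 lay among the unstimulated libraries while replicate 2 was the highest of all 15. Cct6a with IF had a log2 fold change of 0.46 ± 0.30 (SE, adjusted p = 0.388) at 8 h and 0.34 ± 0.30 (SE, adjusted p = 0.574) at 22 h. That of Cct6a with DC was 0.71 ± 0.30 (SE, adjusted p = 0.185) at 8 h and 0.57 ± 0.30 (SE, adjusted p = 0.281) at 22 h.

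Cct7, the eta subunit, measured 248 to 273 CPM at 0 h. Cct7 with IF measured 247 to 374 CPM at 8 h and 237 to 327 CPM at 22 h. Cct7 with DC measured 282 to 458 CPM at 8 h and 243 to 585 CPM at 22 h. Only DC 8 h was free of overlap with 0 h. Cct7 with IF had a log2 fold change of 0.30 ± 0.28 (SE, adjusted p = 0.564) at 8 h and 0.14 ± 0.27 (SE, adjusted p = 0.836) at 22 h. That of Cct7 with DC was 0.41 ± 0.27 (SE, adjusted p = 0.426) at 8 h and 0.53 ± 0.27 (SE, adjusted p = 0.269) at 22 h.

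Cct8, the theta subunit, measured 256 to 273 CPM at 0 h. Cct8 with IF measured 283 to 409 CPM at 8 h and 287 to 348 CPM at 22 h. Cct8 with DC measured 262 to 575 CPM at 8 h and 250.4 to 550.2 CPM at 22 h. Both IF groups lay above 0 h without overlap, and both DC groups overlapped it through replicate 3. Cct8 with IF had a log2 fold change of 0.39 ± 0.27 (SE, adjusted p = 0.414) at 8 h and 0.26 ± 0.27 (SE, adjusted p = 0.653) at 22 h. That of Cct8 with DC was 0.59 ± 0.27 (SE, adjusted p = 0.229) at 8 h and 0.55 ± 0.27 (SE, adjusted p = 0.244) at 22 h.

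The order of the group means differed between members, few neighbours in it were separated beyond their spread, and the place of the DC groups rested on replicate 2. Tcp1, Cct6a and Cct8 ran from DC 8 h through DC 22 h, IF 8 h and IF 22 h down to 0 h. Cct3 had IF 8 h ahead of DC 22 h, Cct7 had DC 22 h first, Cct5 had IF 8 h first and Cct4 had IF 22 h first. Without replicate 2 the DC libraries averaged 292 CPM at 8 h and 229 CPM at 22 h for Cct6a, against 313 CPM at IF 8 h, and 305 and 304 CPM for Cct8, against 345 CPM at IF 8 h. Cct7 at DC 22 h then averaged 271 CPM, below its 319.8 CPM at IF 8 h, and Tcp1 at DC 8 h and 22 h averaged 81.8 and 79.1 CPM, level with its 79.3 CPM at IF 8 h. Cct2 alone had its lowest mean outside the unstimulated group, at IF 22 h, 433 ± 26.3 CPM against 439 ± 21.4 CPM (SD, n = 3), a difference smaller than either SD.

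With immunofilaments for 8 h, all 8 members had a log2 fold change above 0, against 51.3% of all genes. The members varied together from library to library, so in this and the next comparisons their directions are not 8 independent observations. The threshold was passed by 0 of 8, against 7.76% of all genes called. The members' median log2 fold change was 0.38 and that of all genes 0.016. For 6 of 8 the groups did not overlap and the stimulated one was higher, against 14.2% of all genes. At an unadjusted p under 0.05 stood 1 of 8 members, Cct5, against 22.9% of all genes. Fitted on the IF 8 h and unstimulated libraries alone, where 13.7% of all genes were called, 3 of 8 members passed: Cct3 (adjusted p = 0.0345), Cct5 (adjusted p = 0.0144) and Cct6a (adjusted p = 0.0378).

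With dendritic cells for 8 h, all 8 members again had a log2 fold change above 0, against 52.9% of all genes. The members' median was 0.54, against 0.037 for all genes. None passed (0 of 8, against 6.82% of all genes), 6 of 8 had groups that did not overlap (12.8% of all genes) and 6 of 8 had an unadjusted p under 0.05 (20.9% of all genes). The smallest adjusted p was 0.0980, for Tcp1. Without the filter on low counts, where 6.59% of all genes were called, Tcp1 (adjusted p = 0.0328), Cct3 (adjusted p = 0.0140) and Cct6a (adjusted p = 0.0126) passed.

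After 22 h with immunofilaments the members' median log2 fold change was 0.20, against 0.011 for all genes. Of the members' values 7 of 8 were above 0, against 51.1% of all genes. None passed (0 of 8, against 6.07% of all genes), and 2 of 8, Cct4 and Cct8, had groups that did not overlap (15.7% of all genes). An unadjusted p under 0.05 was held by 1 of 8, against 20.5% of all genes. Fitted on the IF 22 h and unstimulated libraries alone, where 9.93% of all genes were called, Cct4 passed (adjusted p = 0.0345). Leaving out libraries 2 and 3 of IF 22 h, those poor in mitochondrial ribosomal RNA, leaves replicate 1 alone, which had the lowest summed level of the members in its group. On that 1 library the median was 0.045, a value with no spread of its own.

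After 22 h with dendritic cells the median was 0.50, against 0.036 for all genes, with all 8 values above 0, against 52.5% of all genes. None passed (0 of 8, against 7.76% of all genes), and 1 of 8, Tcp1, had groups that did not overlap (12.8% of all genes). At an unadjusted p under 0.05 stood 1 of 8 at DC 22 h, against 22.2% of all genes. Tcp1 passed without DC 22 h replicate 3 (log2 fold change 0.85, adjusted p = 0.0402) and without the filter on low counts (adjusted p = 0.0377). Of all genes 8.83% and 7.46% were called in those fits. Scaled by library size alone, 5 of 8 members passed (Tcp1, Cct4, Cct5, Cct7 and Cct8), where 14.7% of all genes were called. That scaling also passed Cct5 at IF 8 h, Cct4 at IF 22 h and Tcp1, Cct4 and Cct5 at DC 8 h. These 4 comparisons share the unstimulated libraries, so their likeness is not independent evidence.

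**Figure D2:**
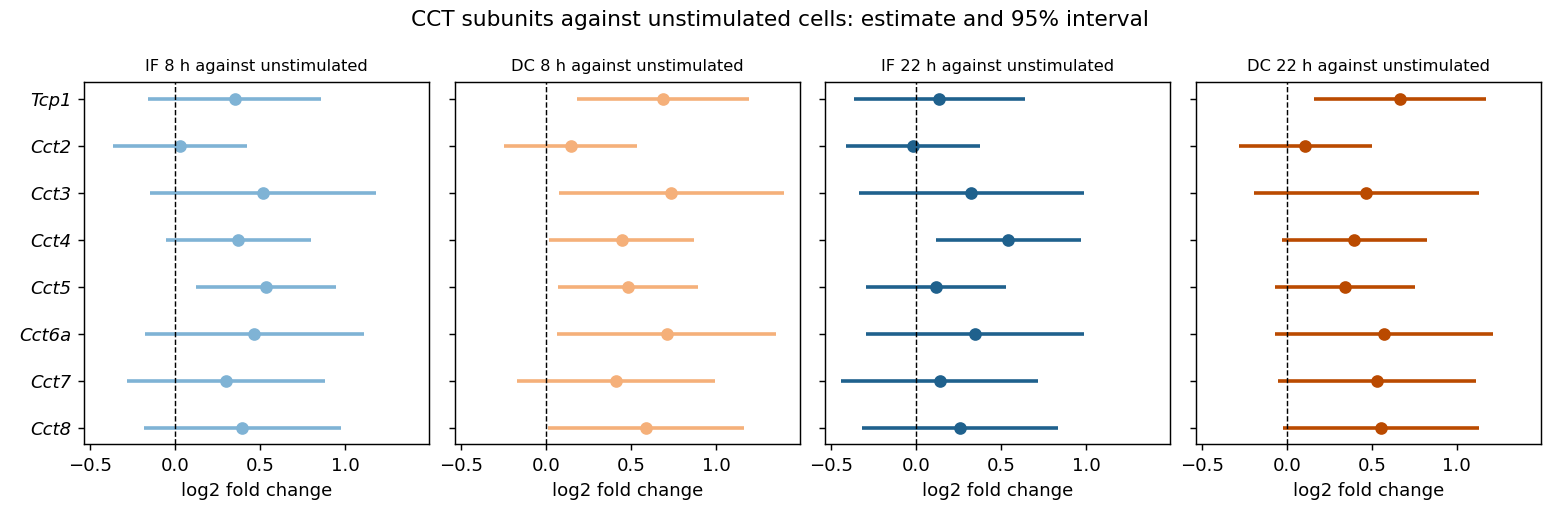
Log2 fold change of each CCT subunit against unstimulated cells (points) with its approximate 95% interval (lines), from a fit of all 15 libraries. No estimate passed the adjusted threshold; the estimates run from −0.02 for Cct2 at IF 22 h to 0.74 for Cct3 at DC 8 h.

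Much of the DC values rested on replicate 2. In it all 8 members were the highest of 3 libraries at both DC times, which 2512 of 10831 genes (23.2%) also were. At 8 h it exceeded the mean of the other 2 libraries by 1.42-fold (Cct5) to 1.88-fold (Cct8), and at 22 h by 1.48-fold (Cct2) to 2.41-fold (Cct6a). Against the unstimulated mean, those other 2 DC libraries averaged 0.960-fold (Cct2) to 1.31-fold (Tcp1) at 8 h, and 0.930-fold (Cct2) to 1.27-fold (Tcp1) at 22 h. With both DC replicate 2 libraries left out, a choice made after seeing the data, the members' median log2 fold change was 0.26 at the earlier DC time and 0.11 at the later one, with 0 of 8 past the threshold. The summed level of the 8 transcripts shows the same: 1925, 3026 and 1759 CPM in DC 8 h replicates 1, 2 and 3, and 1863, 3106 and 1496 CPM at DC 22 h, against 1566 to 1661 CPM at 0 h.

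Other sums moved in these 2 libraries too. DC replicate 2 had the lowest T cell marker sum of its group at 8 h (4867 CPM) and at 22 h (5160 CPM), the lowest dendritic cell marker sum (1307 and 750 CPM), the lowest B cell marker sum (6.95 and 6.52 CPM) and the highest heat-inducible sum of any stimulated library (279.7 and 280.3 CPM). Their part in the members' values was not tested. IF 22 h replicate 3 also had all 8 members highest of 3 (32.7% of all genes), by a smaller margin: the median log2 excess over the other 2 libraries was 0.22, against 0.71 in DC 8 h replicate 2 and 0.84 in DC 22 h replicate 2.

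Between the stimuli no member passed the threshold. At 8 h, IF minus DC gave log2 differences from -0.34 ± 0.24 (SE, adjusted p = 0.808) for Tcp1 to 0.049 ± 0.19 (SE, adjusted p = 0.989) for Cct5, with a median of -0.16, 0 of 8 past the threshold and 0.665% of all genes called. At 22 h they ran from -0.53 ± 0.24 (SE, adjusted p = 0.288) for Tcp1 to 0.14 ± 0.20 (SE, adjusted p = 0.804) for Cct4, with a median of -0.23, 0 of 8 past the threshold and 2.43% of all genes called (6.81% without IF 22 h replicate 1, with 0 members). The direction rested on DC replicate 2: without it at both times the median was 0.14 at 8 h, with 7 of 8 values above 0, and 0.074 at 22 h, with 6 of 8 above 0. Other single libraries kept the direction of the median, which at 8 h ran from -0.34 (without DC 8 h replicate 3) to -0.064 (without IF 8 h replicate 2) and at 22 h from -0.44 (without DC 22 h replicate 3) to -0.17 (without IF 22 h replicate 1). The approximate 95% interval of the Tcp1 difference was -0.85 to 0.16 at 8 h and -1.03 to -0.031 at 22 h, not adjusted for the number of tests.

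Between the times no member passed either. From 8 h to 22 h with immunofilaments, Cct5 went from 172 ± 4.07 to 129 ± 5.07 CPM (SD, n = 3 each), a log2 difference of -0.42 ± 0.19 (SE, adjusted p = 0.325), and was the 1 member of 8 whose groups did not overlap with the later one lower, against 9.37% of all genes. Taken by replicate number, Tcp1 and Cct5 were lower and Cct4 was higher at 22 h than at 8 h in all 3 pairs of IF libraries, and the other 5 members went both ways, so that 3 of 8 went the same way in all 3 pairs, against 37.6% of all genes. Cct4 lay at the other end from Cct5, at 0.17 ± 0.20 (SE, adjusted p = 0.749). The members' median was -0.15, and 0 of 8 passed, against 1.12% of all genes (4.85% without IF 22 h replicate 1, with 0 members). With 1 of the 8 h libraries left out the median was -0.071, -0.26 and -0.097 (replicates 1, 2 and 3), and with 1 of the 22 h libraries left out it was -0.030, -0.16 and -0.24 in the same order. With dendritic cells the differences ran from -0.27 ± 0.31 (SE, adjusted p = 0.900) for Cct3 to 0.12 ± 0.27 (SE, adjusted p = 0.961) for Cct7, with a median of -0.042 and 0 of 8 past the threshold, against 0.480% of all genes. Single libraries turned that median: it was 0.19 without DC 8 h replicate 2 and 0.11 without DC 22 h replicate 3, against -0.21 without DC 8 h replicate 3, -0.15 without DC 8 h replicate 1 and -0.33 without DC 22 h replicate 2, and 0.017 without DC 22 h replicate 1. Taken by replicate number, Cct3 and Cct5 were lower at 22 h than at 8 h in all 3 pairs of DC libraries, and no other member went the same way in all 3, which makes 2 of 8, against 37.5% of all genes. The log2 ratios of Cct3 in pairs 1, 2 and 3 were -0.39, -0.11 and -0.49, and those of Cct5 were -0.038, -0.082 and -0.36. Fitted on the DC libraries alone with the replicate number as a block, a choice made after seeing the data, Cct3 had a log2 difference of -0.34 ± 0.13 (SE, adjusted p = 0.230 by edgeR's quasi-likelihood test) and Cct5 of -0.17 ± 0.13 (SE, adjusted p = 0.575). In that fit 0 of 8 members passed, against 1.63% of all genes, and without the block 0% of all genes passed on these 6 libraries. The change of the IF minus DC difference from 8 h to 22 h ran from -0.28 ± 0.27 (SE, adjusted p = 0.849) for Cct5 to 0.22 ± 0.28 (SE, adjusted p = 0.901) for Cct4. In that comparison 0 of 8 members passed in edgeR, as did 0% of all genes, with 858 genes at an unadjusted p under 0.05 and 40 called by DESeq2, none of them a member. Without IF 22 h replicate 1 the same edgeR test called 279 genes, none of them a member.

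The share of each subunit in the summed level was compared next. Of the summed CPM of the 8 transcripts, Cct2 took 26.0% to 27.9% in the unstimulated libraries and 19.5% to 25.4% in the 12 stimulated ones, with no overlap. Tcp1 took 4.42% to 4.88% in the 6 DC libraries and 3.54% to 4.19% in the 9 others, also with no overlap, DC replicate 2 included. Cct4 took 9.82% to 10.5% at IF 22 h and 7.08% to 9.35% elsewhere. These 3 of the 8 shares were singled out after their values were seen and are given without a test. A share does not depend on how libraries are scaled to each other, and since each share rises where another falls, it does not say which transcript moved. Because a 3′-tag count is not a count of protein, nothing here bears on the make-up of the ring.

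Across the 15 libraries the members' levels varied together. Over the 28 pairs Pearson's r of log2 CPM ran from 0.632 to 0.955, with a median of 0.852, and of the deviations from the group means from 0.821 to 0.976, with a median of 0.906. These values are descriptions: all points share their libraries, their depth and their scaling, and the 2 DC replicate 2 libraries lie far from the others. Of 2673 genes with a mean of at least 50 CPM, the 10 with profiles most like the members' mean were Srm (r = 0.974), which makes spermidine, the helicase Eif4a1 (0.972) and Eif2s1 (0.963) of translation initiation, the pyrophosphatase Ppa1 (0.969), Cacybp (0.965), the nucleolar helicase Ddx21 (0.958), the disulfide isomerase Pdia6 (0.952), cytochrome c Cycs (0.952), Ranbp1 (0.951), which works in nuclear transport, and the splicing factor Srsf3 (0.951). The 3 least like it were Leprotl1 (-0.953), Tmem66 (-0.967) and the diacylglycerol kinase Dgka (-0.975). Likeness was taken over 15 libraries of 5 groups.

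**Figure D3:**
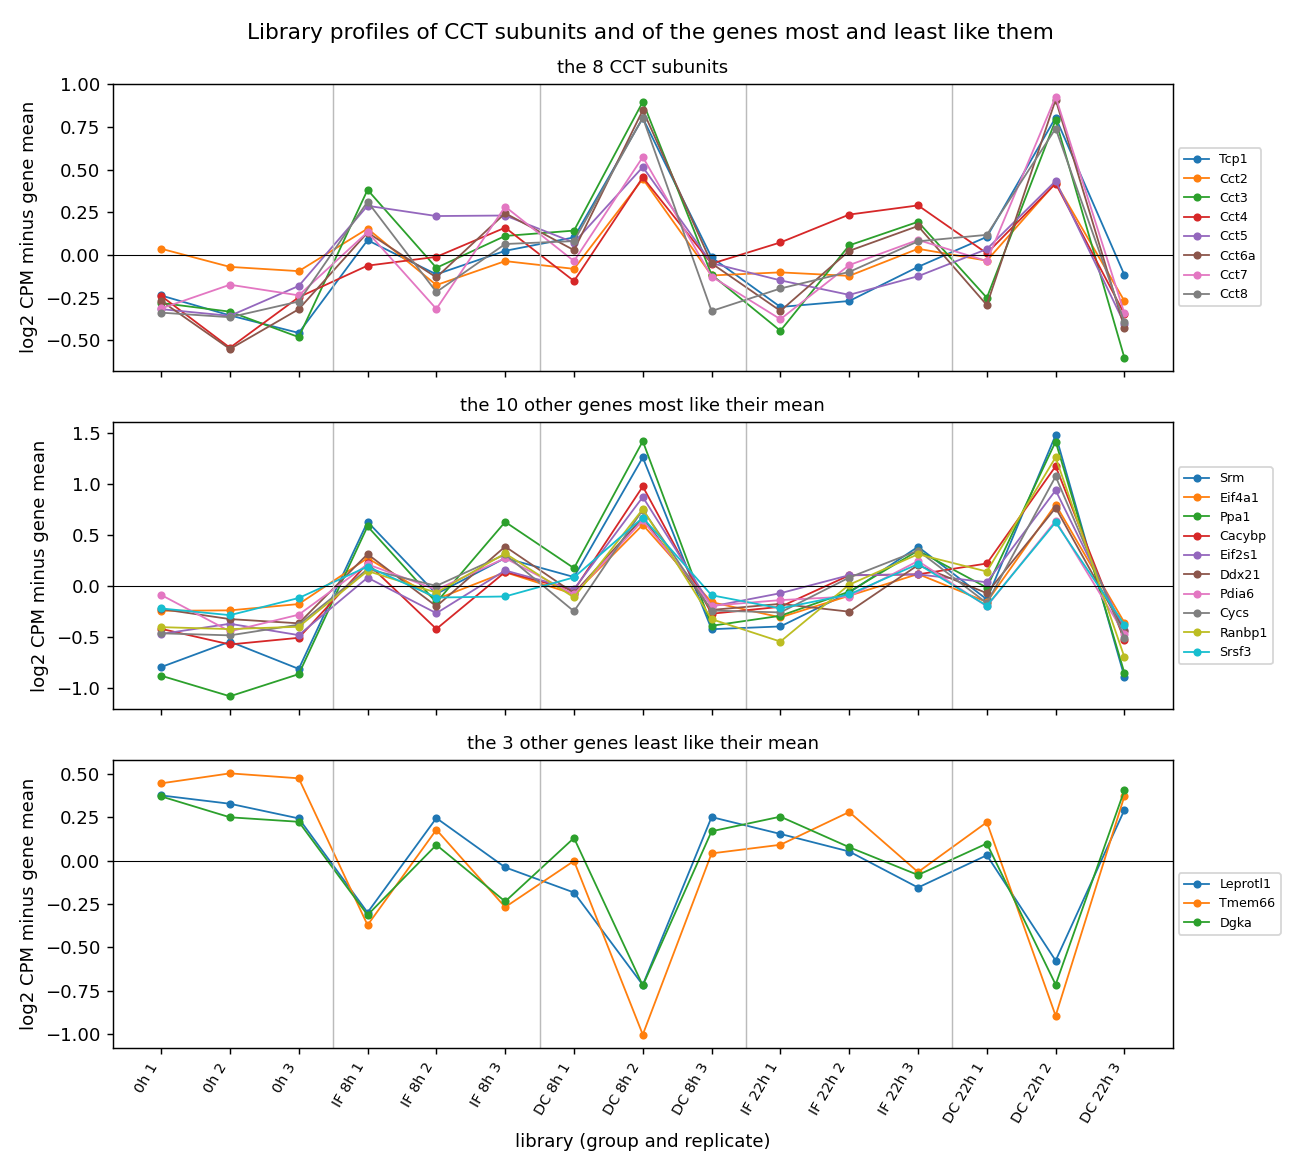
Log2 CPM minus each gene's mean over the 15 libraries, for the 8 CCT subunits (top), the 10 other genes most like their mean profile (middle) and the 3 least like it (bottom); libraries run along the horizontal axis by group and replicate, and the vertical scales differ. Peaks at DC 8 h replicate 2 and DC 22 h replicate 2 stand out in the upper panels and dips at the same libraries in the lowest.

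Of the genes that work with CCT, the calls in 4 comparisons with 0 h stand beside 6.07% to 7.76% of all genes called. Of the prefoldin subunits 5 of 6 were in the tables and tested: 1 passed, Vbp1, higher at IF 22 h, at 70.0 ± 7.62 CPM against 45.4 ± 6.70 CPM (SD, n = 3). Its log2 fold change was 0.62 ± 0.18 (SE, adjusted p = 0.0439). Of the 3 phosducin-like and thioredoxin-like cofactors tested, 0 passed in any of the 4 comparisons with 0 h. The same held for the 6 tubulin folding cofactors, which take up tubulin after CCT, and for the 16 HSP70 and HSP90 chaperones and co-chaperones tested, whose median log2 fold changes with IF were 0.12 at 8 h and 0.22 at 22 h, and with DC 0.29 and 0.52. Of the 2 genes of the mitochondrial chaperonin, Hspd1 was higher at DC 22 h, at 232 ± 157 CPM against 83.1 ± 11.0 CPM. The log2 fold change of Hspd1 was 1.48 ± 0.40 (SE, adjusted p = 0.0293), and Hspe1 did not pass. Leaving out 1 library at a time kept the Vbp1 log2 fold change between 0.51 and 0.71, but 5 of the 6 fits, all but that without IF 22 h replicate 1, left it short of the threshold (adjusted p up to 0.187). Hspd1 stood at 0.80 (adjusted p = 0.178) without DC 22 h replicate 2, and did not pass without any 1 unstimulated library either, at 1.43 to 1.61 (adjusted p = 0.0727 to 0.105). Fitted on just the 2 groups compared with a replicate block, Vbp1 (0.63, adjusted p = 0.0663) and Hspd1 (1.29, adjusted p = 0.111) did not pass.

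Among the substrates, 12 actin and tubulin genes were tested, and members of the list went in both directions. Actb, cytoplasmic beta-actin, fell in all 4 comparisons, from 14714 ± 557 CPM at 0 h to between 6786 ± 2539.7 CPM at IF 22 h and 7993 ± 314 CPM at IF 8 h (SD, n = 3), with log2 fold changes from -1.12 ± 0.19 (SE, adjusted p = 0.00236) to -0.88 ± 0.19 (SE, adjusted p = 0.0111). Tubb5, a beta-tubulin, fell at IF 8 h by 0.70 ± 0.13 (SE, adjusted p = 0.00352), at DC 8 h by 0.75 ± 0.13 (SE, adjusted p = 0.00199) and at DC 22 h by 0.47 ± 0.13 (SE, adjusted p = 0.0332). Actg1, cytoplasmic gamma-actin, fell at IF 8 h, by 0.44 ± 0.11 (SE, adjusted p = 0.0219), and was higher at IF 22 h than at IF 8 h, by 0.67 ± 0.11 (SE, adjusted p = 0.00831). Tubb2b, another beta-tubulin, rose in all 4 comparisons from 7.37 ± 3.10 CPM, by a log2 fold change of 1.33 ± 0.35 (SE, adjusted p = 0.0288) at DC 22 h to 2.04 ± 0.36 (SE, adjusted p = 0.00246) at IF 8 h. Tuba1c, an alpha-tubulin, rose at IF 8 h, by 0.75 ± 0.21 (SE, adjusted p = 0.0422), and was higher with IF than with DC at 22 h, by 1.06 ± 0.21 (SE, adjusted p = 0.0124). In all, with IF 2 of the 12 were higher and 3 lower at 8 h (7.76% of all genes called in either direction), and 1 higher and 1 lower at 22 h (6.07%). With DC 1 was higher and 2 lower at 8 h (6.82% of all genes) and at 22 h (7.76%). Between the IF times 1 of the 12 was called, against 1.12% of all genes, and between the stimuli at 22 h also 1, against 2.43%. Tubulin genes are alike in coding sequence, and how far the 3′ tags reach into it is not given in the sources used here. How reads that match several genes were counted is not given either, so the split between the tubulin genes is uncertain. With 1 library left out at a time, which also lowers the number of calls over all genes in most fits, the fold changes of these genes kept their direction. Tubb2b at DC 22 h ran from 1.03 to 1.56 (passing in 2 of 6 fits), Tubb5 at DC 22 h from -0.54 to -0.42 (1 of 6), Actg1 at IF 8 h from -0.49 to -0.39 (2 of 6), and Tuba1c from 0.61 to 0.86 at IF 8 h (1 of 6) and from 0.96 to 1.24 between the stimuli (3 of 6). Without IF 8 h replicate 3, Actb at IF 8 h was -0.85 and the Actg1 difference between IF times 0.65 (both adjusted p = 0.0508), and both passed in the other 5 fits. The Actb, Tubb2b and Tubb5 calls not named here passed in 6 of 6. Scaled by library size alone, Actb at IF 8 h (-0.64, adjusted p = 0.0566), Actg1 at IF 8 h (-0.19, adjusted p = 0.246) and Tubb5 at DC 22 h (-0.14, adjusted p = 0.486) did not pass. Fitted on just the 2 groups compared with a replicate block, Tubb2b (1.42, adjusted p = 0.0842) and Tubb5 (-0.45, adjusted p = 0.147) did not pass at DC 22 h, nor did the Actg1 difference between IF times (0.66, adjusted p = 0.109) or the Tuba1c difference between the stimuli (1.05, adjusted p = 0.181).

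Of the 14 WD40 and other substrates tested, 1 passed at DC 8 h, where 6.82% of all genes were called, and none in the other comparisons with 0 h. It was Stat3, a transcription factor downstream of cytokine receptors, at 543 ± 141 CPM at DC 8 h against 309 ± 29.8 CPM at 0 h. Its log2 fold change was 0.81 ± 0.18 (SE, adjusted p = 0.0120). At 22 h Stat3 was lower with IF than with DC, by -0.75 ± 0.18 (SE, adjusted p = 0.0369) as IF minus DC. It was the 1 of 14 called there, against 2.43% of all genes. Ccne1, the cyclin that drives entry into S phase, was higher at DC 22 h than at DC 8 h, at 37.9 ± 20.9 against 7.90 ± 3.76 CPM, a log2 difference of 2.26 ± 0.45 (SE, adjusted p = 0.0283). It was the 1 of 14 called between the DC times, against 0.480% of all genes. With 1 library left out, Stat3 at DC 8 h ran from 0.58 (without DC 8 h replicate 2, adjusted p = 0.0723) to 0.95 and passed in 3 of 6 fits. The Stat3 difference between the stimuli ran from -0.83 to -0.67 and passed in 1 of 6, and with the replicate number as a block it was -0.76 (adjusted p = 0.0534), or -0.78 (adjusted p = 0.259) on just the 2 groups compared. The Ccne1 difference ran from 1.83 (without DC 22 h replicate 2, adjusted p = 0.109) to 2.70 and passed in 1 of 6.

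**Figure D4:**
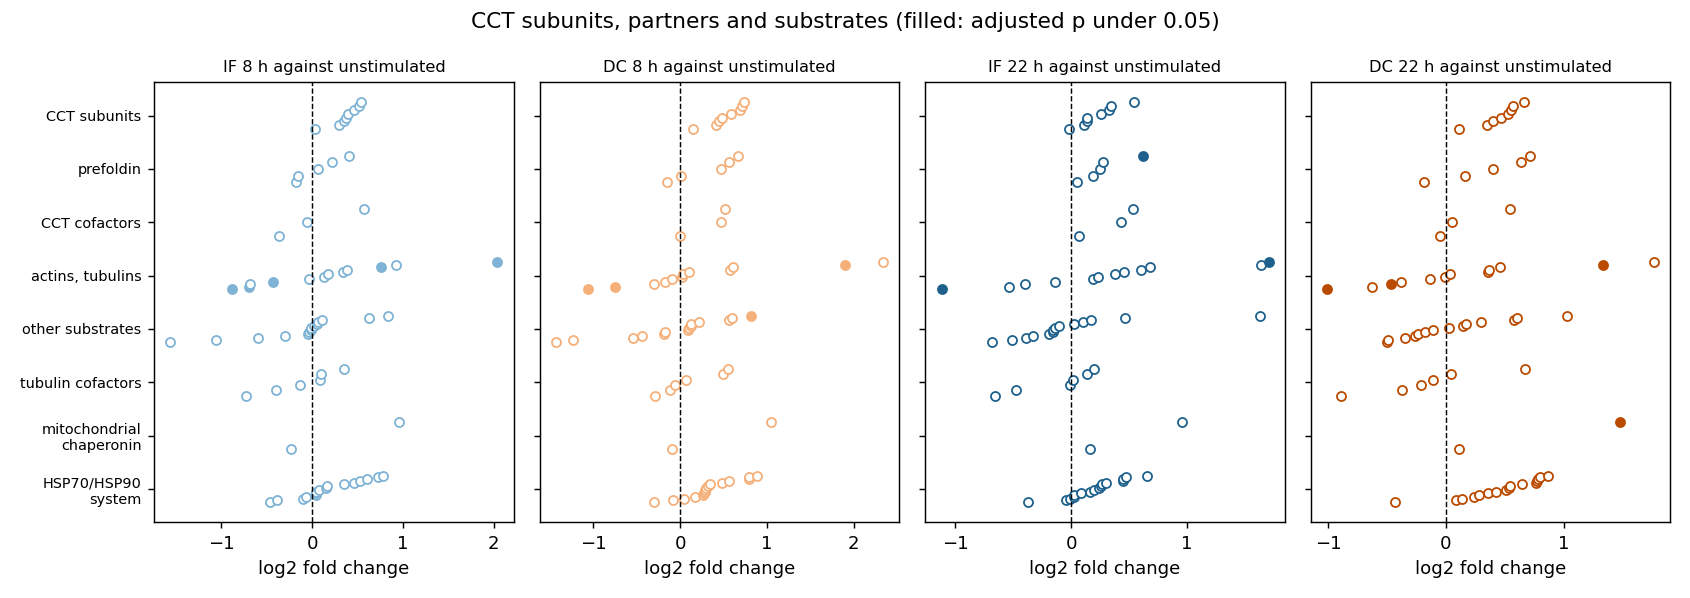
Log2 fold change against unstimulated cells of the CCT subunits and of the genes that work with them, one point per gene and one row per list; filled points have an adjusted p under 0.05, and the horizontal scales differ between panels. The 8 CCT subunits are open in all 4 panels, while the row of actins and tubulins holds filled points on both sides of 0.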

How the data were processed

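RNA was measured in 15 libraries of sorted cells with an adapted CEL-seq protocol, which tags the 3′ ends of transcripts, pools barcoded samples and amplifies them by in vitro transcription, per the labels' protocols. The deposited values are whole-number read counts per gene, made by the authors. BWA and mm10 are named per the submitters' processing notes. The counting program, annotation, use of strand and use of molecular identifiers are not given in the sources used here, and without identifiers reads are not independent molecules.

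Counts of 17493 genes were filtered with filterByExpr (minimum count 10, minimum total 15), which left 10831, scaled with TMM and fitted with edgeR 4.0.16 (quasi-likelihood, prior count 0.125, two-sided) in R 4.3.3, with 5 group means over all 15 libraries. P-values were adjusted by Benjamini-Hochberg over all genes tested in each comparison, with a threshold of 0.05. SEs are the log2 fold change divided by the square root of F, so 95% intervals are approximate. Log2 CPM for profiles used a prior count of 2. Python 3.11.15 read the reference tables. Were reads independent molecules, no pair of replicates would agree within sampling noise (chi-square per degree of freedom 9.50 to 98.1). Where they are not, these values do not measure how far replicates differ beyond it. The numbers 1 to 3, from Don1 to Don3 in the titles, were taken to pair libraries by donor, with the replicate block as an alternative to the fit without it. Deviations from the group means correlated by -0.351 to 0.665 over the 30 same-numbered pairs of libraries (median 0.012, over 0.1 in 5). Over the 60 differently numbered pairs they correlated by -0.571 to 0.361 (median -0.0033, over 0.1 in 13). The 3 same-numbered pairs of DC 8 h with DC 22 h gave 0.276, 0.665 and 0.466. There libraries 1 and 3 also correlated with each other (0.319 and 0.329).

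The members, the gene lists and the tests were chosen with earlier results of these data known. All 8 members are named in the comparisons; of the other lists up to 3 genes past the threshold with the smallest p, and the 10 genes most and 3 least like the members' mean profile, were eligible. Lists covered prefoldin, CCT cofactors, actin and tubulin, WD40 and other substrates, tubulin cofactors, the mitochondrial chaperonin, HSP70 and HSP90 chaperones, heat-inducible and immediate early genes, and T, dendritic and B cell markers. Alternatives were DESeq2 1.42.0 and its size factors, library size alone, other filters, a threshold of 0.01, thinned counts, only the groups compared, a replicate block and left-out libraries. The same alternatives were applied to the partner and substrate calls, a step chosen after seeing the data.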

Additional observations from a re-analysis of the deposited data

How the results depend on the processing

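Against 0 h, the fold changes of Tcp1, Cct4, Cct5, Cct6a and Cct8 were above 0 under every alternative run. As reported, 0 of 8 members passed in each comparison. Members past the threshold numbered 1 at both IF times, 3 at DC 8 h, 5 at DC 22 h and 2 for any difference with library size alone in place of TMM, where 10.2% (IF 8 h), 7.74% (IF 22 h), 9.96% (DC 8 h) and 14.7% (DC 22 h) of all genes and 1527 of 10831 (any difference) were called. They numbered 3 at IF 8 h and 1 at IF 22 h where a fit held just the 2 groups, with or without a replicate block, and 3 at DC 8 h, 1 at DC 22 h and 1 for any difference with no filter on low counts. Leaving out 1 library at a time gave 0 to 1 at DC 22 h (Tcp1 without DC 22 h replicate 3) and 0 elsewhere. Library size alone also moved the median of all genes to 0.26 and 0.22 at IF 8 h and 22 h and to 0.30 and 0.37 at DC 8 h and 22 h. The members' medians there were 0.62 and 0.40, and 0.80 and 0.84. The share of calls that were higher was then 76.2% and 74.1% with IF and 79.6% and 85.3% with DC, against 39.2% and 43.4%, and 40.3% and 43.9%, with TMM. DESeq2 called 0 members in every comparison. With a replicate block in the fit of all 15 libraries 0 of 8 members passed in every comparison, and all-gene calls against 0 h numbered 767 and 638 with IF and 714 and 785 with DC, against 840 and 657, and 739 and 840, without it. Of the named partner and substrate calls that block ended Stat3 between the stimuli at 22 h. On just the 2 groups compared, the fit with the block also did not call Vbp1, Hspd1, Actg1 (IF 22 h against 8 h), Tuba1c (between the stimuli), and Tubb2b and Tubb5 (DC 22 h), while of these Vbp1 and Actg1 passed there without the block. On the DC libraries alone, 22 h against 8 h gave 166 calls with the block and 0 without. All-gene calls ranged with the settings, left-out libraries of the groups compared included, from 267 to 1298 and 99 to 1101 with IF and from 308 to 1175 and 335 to 1587 with DC at 8 h and 22 h against 0 h, 11 to 215 and 8 to 759 for IF against DC at 8 h and 22 h, 0 to 541 and 0 to 251 for 22 h against 8 h with IF and DC, 0 to 279 for the change of the IF minus DC difference and 559 to 2416 for any difference. Leaving out libraries of other groups changes the shared spread, and without both DC replicate 2 libraries the calls numbered 1415 at IF 8 h and 1130 at IF 22 h. The values 759, 541 and 279 came without IF 22 h replicate 1, and 99 and 8 with that library alone in its group, where a lost call says little. With 1 library of the 2 groups compared left out, calls against 0 h numbered 418 to 572 and 284 to 947 with IF, and 403 to 665 and 454 to 986 with DC. Of 1208 member fold changes under the alternatives, 102 had the other sign, 0 of these past the threshold, and 23 newly passed it. These log2 values had the other sign from the reported one. With both DC replicate 2 libraries left out these were Cct2 -0.066 at DC 8 h, Cct2 -0.084 and Cct3 -0.034 at DC 22 h, Cct2 0.093, Cct3 0.14, Cct4 0.14, Cct6a 0.10, Cct7 0.14 and Cct8 0.18 in IF minus DC at 8 h, Cct2 0.078, Cct3 0.37, Cct6a 0.32, Cct7 0.069 and Cct8 0.041 in IF minus DC at 22 h, Cct7 -0.072 and Cct8 0.021 in DC 22 h minus 8 h. With library size alone these were Cct2 0.19 at IF 22 h, Tcp1 0.045, Cct2 0.032, Cct4 0.021 and Cct8 0.038 in DC 22 h minus 8 h, Cct3 -0.037 and Cct6a -0.094 in the change of the IF minus DC difference. With counts thinned to the smallest library these were Cct2 0.010 at IF 22 h, Cct2 0.0028 and Cct4 0.014 in DC 22 h minus 8 h, Cct6a -0.033 in the change of the IF minus DC difference. Without IF 22 h libraries 2 and 3 these were Cct3 -0.081 and Cct7 -0.13 at IF 22 h, Cct3 -0.33 and Cct6a -0.28 in the change of the IF minus DC difference. With a mean of at least 10 CPM these were Tcp1 0.0019 in DC 22 h minus 8 h, Cct6a -0.0055 in the change of the IF minus DC difference. With no filter these were Cct2 0.00044 in the change of the IF minus DC difference. Leaving out 1 library at a time turned others, printed here as the lowest and highest value over the left-out libraries. At IF 8 h the ranges were Cct2 -0.069 to 0.10. At DC 8 h the ranges were Cct2 -0.060 to 0.26. At IF 22 h the ranges were Cct2 -0.069 to 0.022. At DC 22 h the ranges were Cct2 -0.084 to 0.25 and Cct3 -0.034 to 0.72. For IF minus DC at 8 h the ranges were Cct2 -0.23 to 0.086, Cct3 -0.43 to 0.13, Cct4 -0.19 to 0.13, Cct5 -0.077 to 0.23, Cct6a -0.42 to 0.098, Cct7 -0.26 to 0.13 and Cct8 -0.43 to 0.18. For IF minus DC at 22 h the ranges were Cct2 -0.27 to 0.079, Cct3 -0.40 to 0.37, Cct4 -0.025 to 0.35, Cct6a -0.46 to 0.32, Cct7 -0.63 to 0.069 and Cct8 -0.53 to 0.041. For IF 22 h minus 8 h the ranges were Cct2 -0.12 to 0.052, Cct6a -0.23 to 0.013 and Cct8 -0.26 to 0.011. For DC 22 h minus 8 h the ranges were Cct2 -0.22 to 0.17, Cct3 -0.76 to 0.087, Cct4 -0.24 to 0.16, Cct5 -0.34 to 0.049, Cct6a -0.67 to 0.21, Cct7 -0.32 to 0.37, Cct8 -0.35 to 0.34 and Tcp1 -0.32 to 0.28. For the change of the IF minus DC difference the ranges were Cct2 -0.22 to 0.19, Cct3 -0.28 to 0.59, Cct6a -0.32 to 0.56, Cct7 -0.53 to 0.18, Cct8 -0.47 to 0.23 and Tcp1 -0.49 to 0.12. The cause was not tested.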
